A study of Mus musculus with 2 samples.

Results

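The mitochondrial genome of the mouse was examined through its 37 annotated genes in total RNA of the developing cerebral cortex. The genes were taken as all symbols that start with mt-, which gave 13 mRNA genes, 2 ribosomal RNA genes and 22 transfer RNA genes among the 55536 genes of the tables. Both samples came from females of the F1 hybrid strain B6CASTF1/J (C57BL/6J by CAST/EiJ), 10 days old, and were taken from the left cerebral cortex; the labels name no treatment. They form 1 group of biological replicates 1 and 2 (n = 2 throughout), each sequenced as a stranded library of total RNA from 300 ng after reduction of ribosomal RNA and with ERCC spike-ins, which are synthetic RNAs added at set amounts. The labels number the females separately but list them under 1 donor entry. Whether that entry stands for an animal or for the strain was not given in the sources used here. The spread between the libraries may therefore in part be technical. No other group was analysed here, so values, means and SD are given and no p-value was computed. Allele of origin was not separated.

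Mitochondrial DNA is a small circle, inherited through the mother, that encodes core membrane subunits of the respiratory chain and the rRNAs and tRNAs needed to translate them inside the organelle. Both strands are read as long precursors, and the tRNAs lying between the other genes are cut out, which frees the mRNAs and rRNAs. All the remaining subunits, the ribosomal proteins and the polymerase are made from nuclear genes. Neurons depend on this oxidative chain for the ATP that pumps ions and drives synapses. Pieces of mitochondrial DNA have also been copied into the nuclear genome in evolution, and reads from such copies and from the organelle can be identical.

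The tables held 29990965 reads in replicate 1 and 31156256 in replicate 2, of which spike-ins took 0.413% and 0.401%. All 6 markers of cortical glutamatergic neurons stood at 1 TPM or more in both libraries (TPM is each gene's share of all transcripts after correction for length, on a scale with a fixed sum), with summed levels of 772 and 777 TPM. The cerebellar markers Gabra6 and Barhl1 together reached 0.0200 and 0.270 TPM. Of the 3 choroid plexus markers, Ttr stood at 1 TPM or more in both libraries, and Kl and Folr1 were each below 1 TPM in at least 1 library. The 3 markers summed to 5.18 and 11.2 TPM. Blood markers summed to 442 and 541 TPM, with Ptprc below 1 TPM in at least 1 library. Markers of the oligodendrocyte lineage summed to 171 and 304 TPM. These last 3 sums were higher in replicate 2. Sums were lower there for interneurons (156 and 126 TPM), astrocytes (233 and 219), microglia (79.2 and 74.3) and endothelium (51.6 and 51.1). The part of these differences in the results below was not tested.

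On the annotated map (assembly mm10, GENCODE M21) the 37 genes lie almost end to end between bases 1 and 15422 of chromosome M. Of 36 neighbouring pairs, 35 are at most 5 bases apart and 9 overlap, and the widest gap is 32 bases. All 22 borders between a long gene and a tRNA gene lie within 5 bases. The plus strand carries 28 genes, including both rRNAs and 12 mRNAs. The minus strand carries 8 tRNA genes and the mRNA of mt-Nd6, a complex I subunit. Base content follows the strand: mt-Nd6 holds 28.1% G and 5.97% C, whereas the other 12 mRNAs hold 5.88% to 16.1% G and 22.1% to 30.0% C.

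Overlapping genes are shown because their reads cannot all be assigned to 1 of them. The sequences run 5′ to 3′ across the junction, with the bases shared by both genes in capitals, and were read from the GENCODE M21 transcripts. The first joins the genes of the ATP synthase subunits mt-Atp8 and mt-Atp6, which share 43 bases. The second joins the complex I genes mt-Nd4l and mt-Nd4, which share 7 bases.
mt-Atp8 into mt-Atp6: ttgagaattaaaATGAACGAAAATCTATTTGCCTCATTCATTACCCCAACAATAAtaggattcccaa
mt-Nd4l into mt-Nd4: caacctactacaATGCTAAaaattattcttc
In 3 of the 13 mRNA genes, mt-Co3, mt-Nd4 and mt-Cytb, the annotated gene stops 1 base past its last full codon. Such genes are known to gain the remainder of a stop codon from the poly(A) tail. The last bases are given with that base in capitals.
mt-Nd4: attacaggcctgacaataT
mt-Cytb: atactaaaattatatccaT
mt-Co3: atttattgatgaggatctT

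Mitochondrial genes took 6.28% of gene reads in replicate 1 (95% Wilson interval 6.27% to 6.29%, counting error only) and 5.55% in replicate 2 (5.55% to 5.56%). The mean was 5.92% ± 0.512 (SD). These shares count the 3 nuclear copies described below with mt-Co2, mt-Atp6 and mt-Co3. Ribosomal RNA made up most of it, with 4.08% ± 0.464 of gene reads against 1.84% ± 0.0483 for the 13 mRNAs. On the TPM scale the shares were 5.14% ± 0.741 for rRNA and 3.65% ± 0.225 for mRNA. Of the 37 genes, 15 stood at 1 TPM or more in both libraries, namely the 2 rRNAs and 13 mRNAs. Over all genes 26.9% did so. The other 22 members, all tRNA genes, had 0 reads.

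The 2 rRNAs form the cores of the mitochondrial ribosome. The large-subunit RNA mt-Rnr2 (chromosome M, 1094 to 2675, plus strand) was at 35517 TPM in replicate 1 and 28194 in replicate 2, and ranked 4 among all gene rows in both. The small-subunit RNA mt-Rnr1 (70 to 1024, plus strand) was at 20609 and 17582 TPM and ranked 5 in both. Replicate 1 was higher for each. Within a library mt-Rnr2 exceeded mt-Rnr1 by 1.66-fold, with log2 ratios of 0.79 and 0.68, although the same precursor holds both. The libraries were reduced for ribosomal RNA, so these levels are what that step left, and how evenly it acted on the 2 RNAs was not tested.

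The 13 mRNAs had a median of 1601 ± 126 TPM (1689.8 and 1511), with mt-Co2, mt-Atp6 and mt-Co3 read as the sum of the gene and its copy. In both libraries the median was the value of mt-Nd4l, a gene of 297 bases. It had only 3 and 8 reads in the alignment-free tables. Genes of complex IV and the ATP synthase gene mt-Atp6 were highest, genes of complex I were lower, and mt-Nd6 was lowest. The highest mean exceeded the lowest by 42.6-fold. Without mt-Nd6 it was 6.37-fold. Of the 12 neighbours in this order, 9 were apart by more than 2 SD of their log2 ratio with the same sign in both libraries, a weak criterion with 2 values.

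**Figure D1:**
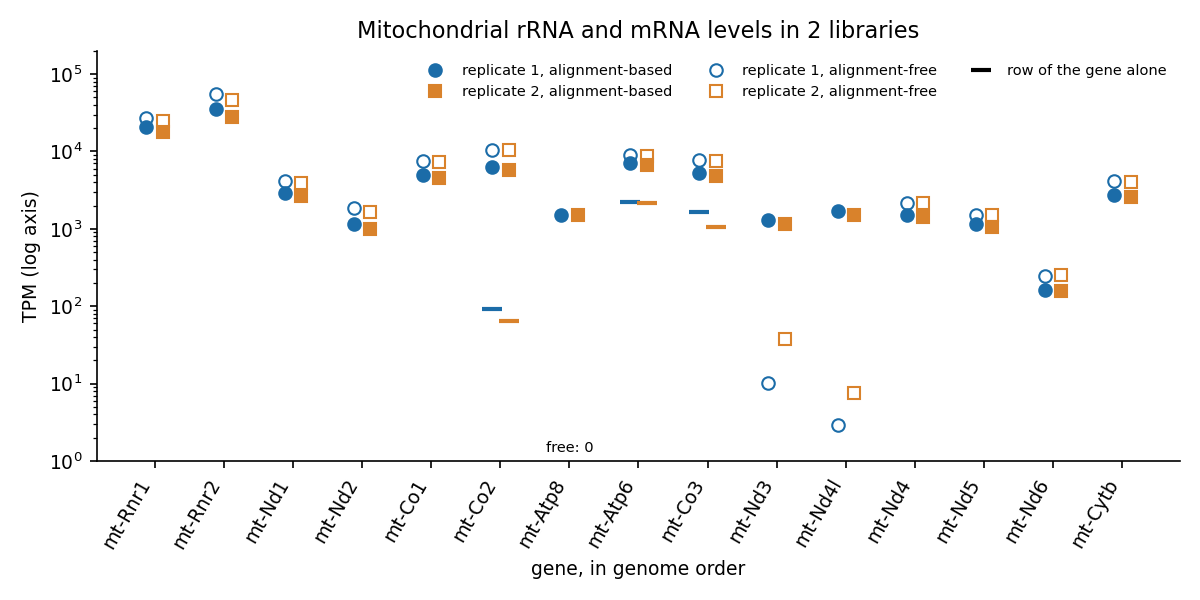
TPM (log axis) of the 2 rRNAs and 13 mRNAs in genome order, in replicate 1 (circles) and replicate 2 (squares), from the alignment-based (filled) and alignment-free (open) tables. Symbols of mt-Co2, mt-Atp6 and mt-Co3 are sums with the nuclear copy and the short lines are their own rows, so that mt-Co2 falls from about 6004 TPM as a sum to 90.8 and 64.6 as a row, and mt-Nd6 is the lowest sum at 162 TPM.

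Complex IV passes electrons to oxygen, and its catalytic core is wholly mitochondrial. Its largest subunit mt-Co1, which holds the haem and copper centre, was at 4968 TPM in replicate 1 and 4502 in replicate 2. The copper-binding subunit mt-Co2 summed to 6210.5 and 5798 TPM. The remaining core subunit, mt-Co3, summed to 5301 and 4820.4 TPM. The 3 levels lay close together: mt-Co2 exceeded mt-Co1 by 1.27-fold and mt-Co3 exceeded mt-Co1 by 1.07-fold. Adding to mt-Co1 the reads of Gm29216, a partial nuclear copy, narrowed the first ratio to 1.15-fold and turned the sign of the other (log2 0.10 to -0.05).

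ATP synthase takes 2 subunits from the mitochondrial genome. The proton channel subunit mt-Atp6 summed to 7169.7 and 6589 TPM, the highest mitochondrial mRNA in both libraries. The small subunit mt-Atp8 was at 1530.1 and 1489.8 TPM. These 2 genes share a bicistronic mRNA, and mt-Atp6 exceeded mt-Atp8 by 4.55-fold per length (log2 2.19 ± 0.06). That ratio rests on an effective length of 105 bases for mt-Atp8, against 582 for mt-Atp6. Its SD covers only the spread between the libraries. The part of short length and of the shared bases in the ratio was not tested. From the rows alone, without the copy Gm10925, the log2 ratio was 0.53. The other bicistronic pair was nearly even: mt-Nd4l stood at 1689.8 and 1511 TPM and mt-Nd4 at 1516 and 1405, a log2 ratio of mt-Nd4 over mt-Nd4l of -0.13 ± 0.04.

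Complex III, which hands electrons from quinol to cytochrome c, takes only mt-Cytb from the mitochondrial genome, at 2773 and 2564 TPM. Among the 7 complex I genes, which form the proton-pumping membrane arm, mt-Nd1 was highest at 2881 and 2628 TPM. It exceeded mt-Nd2, next but for tRNA genes on the same strand, by 2.55-fold (1158 and 1002 TPM). The subunit mt-Nd3 was at 1306 and 1148 TPM and mt-Nd5 at 1138 and 1056. mt-Nd5 and mt-Nd2 changed places between the libraries, as their log2 ratio was -0.03 in replicate 1 and 0.08 in replicate 2. The pairs mt-Nd4l with mt-Atp8 and mt-Atp8 with mt-Nd4 were likewise within 2 SD.

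mt-Nd6 (13552 to 14070, minus strand) is the only mRNA of its strand. It was at 164.1 TPM in replicate 1 and 159 in replicate 2. Its 3′ end overlaps that of mt-Nd5 by 14 bases, and mt-Nd5 exceeded it by 6.78-fold (log2 of mt-Nd6 over mt-Nd5 -2.76 ± 0.04). mt-Cytb, on the other side of mt-Nd6, exceeded mt-Nd5 by 2.43-fold with log2 ratios of 1.28 in both libraries. The libraries are labelled as stranded, but strand use in the counting was not given in the sources used here. If it was not used, reads from the opposite strand of mt-Nd6 cannot be told apart from its own. All 8 gene pairs compared within a library had the same sign in both libraries and a mean beyond 2 SD.

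Copies of mitochondrial sequence in nuclear genes touched 9 of the 13 mRNAs. At 95% identity or more over at least 100 bases, these 9 matched 11 annotated nuclear pseudogenes, 7 of them side by side on chromosome 1 (24611535 to 24616197, minus strand). No such match was found for the rRNAs, or for mt-Nd1, mt-Atp8, mt-Nd6 and mt-Cytb. In 5 pairs the aligned bases were identical. The last bases of 3 such pairs show how little separates gene from copy: capitals mark bases that only the mitochondrial gene has.
mt-Co2: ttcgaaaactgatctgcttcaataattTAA
Gm28661: ttcgaaaactgatctgcttcaataatt
mt-Atp6: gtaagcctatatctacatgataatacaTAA
Gm10925: gtaagcctatatctacatgataataca
mt-Co3: tacgtctccatttattgatgaggatctT
Gm28437: tacgtctccatttattgatgaggatct
Of the 585 windows of 100 bases in mt-Co2, 3 were its own and 582 were found unchanged in a nuclear copy. The same held for 3 of 582 windows of mt-Atp6 and 1 of 685 of mt-Co3.

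The tables nevertheless divided these reads unequally. Gm28661 (chromosome 1, 24614885 to 24615565) held 66683 reads and mt-Co2 994 in replicate 1, and 68322 against 774 in replicate 2, so the copy held 98.7% ± 0.246 of the sum. Gm10925 (24613974 to 24614651) held 68.7% and 67.6% of its sum with mt-Atp6. Gm28437 (24613189 to 24613971) held 68.4% of its sum with mt-Co3 in replicate 1 and 78.3% in replicate 2. In the alignment-free tables the copies held 89.9% ± 1.76, 21.9% ± 4.18 and 54.2% ± 12.4. Only the sums are therefore compared between genes here.

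In the alignment-based tables the sums of mt-Co2, mt-Atp6 and mt-Co3 with their copies were steadier between libraries than their parts. In the alignment-free tables this did not hold for Gm28661. It changed 0.999-fold after scaling, against 1.03-fold for its sum with mt-Co2. The values that follow are from the alignment-based tables. As a row, mt-Co3 had 21474 reads in replicate 1 and 14627 in replicate 2, while Gm28437 had 46440 and 52904, and together they had 67914 and 67531. After scaling, mt-Co3 alone fell by 0.58 on the log2 scale from replicate 1 to 2, and the sum fell by 0.03. The row of mt-Co2 likewise fell by 0.38, against 0.01 for its sum. The deposited TPM of mt-Co2, 90.8 and 64.6, lay below the lower bound of its own deposited credible interval (485 in replicate 1). mt-Co3 lay below its interval in both libraries too. Of the 15 counted members and 3 copies, 13 lay above theirs in both libraries. Over all 12689 genes with 100 reads or more on average, 4.46% had a TPM outside that interval in both, with 489 genes above it. That set includes genes of far lower depth, and no share was computed for genes of like depth. The abundant lincRNA rows Gm26917 and Gm42418 also lay above their intervals in both libraries. The count of 13 is therefore not read as a trait of mitochondrial genes or copies. The level of these intervals was not given in the sources used here.

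**Figure D2:**
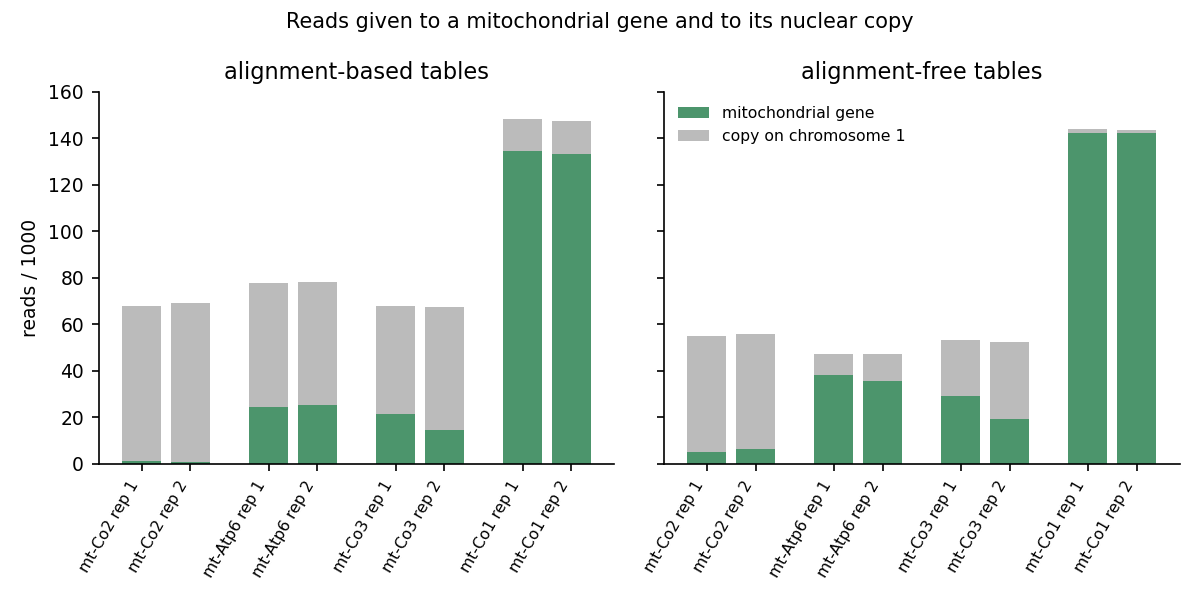
Reads (in units of 1000) given to the mitochondrial gene (green) and to its copy on chromosome 1 (grey), stacked, for 4 genes in each replicate, from the alignment-based tables (left) and the alignment-free tables (right). Bar heights change little between replicates, as with 67914 and 67531 reads for mt-Co3, while the division changes between replicates and tables.

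The genes mt-Nd4l, mt-Nd3 and mt-Nd4 also match a copy over part or nearly all of their length, but kept all their reads in the alignment-based tables. mt-Nd4l has 3 windows of its own among 198, yet it held 6264 and 6127 reads and its copy Gm10222 had 0 in both libraries, with a deposited interval reaching 258 TPM in replicate 1. mt-Nd3 held 6087 and 5854 reads and Gm28438 had 0. mt-Nd4, of which the first 876 of 1378 bases match Gm28439 exactly, held 36305 and 36789 reads against 0. In the alignment-free tables Gm28439 had 1951 and 840 reads. The chromosome 1 copy of mt-Co1, Gm29216, covers the last 483 bases of the gene and took 13906 and 14350 reads, or 9.55% ± 0.248 of the sum.

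Where gene and chromosome 1 copy differ within the aligned part, it is at a single base. Positions count from 1 at the first base of the mitochondrial gene, and the base of the mitochondrial gene stands first. mt-Co1 and Gm29216 differ by A1066T, and mt-Nd3 and Gm28438 by T3C. Capitals mark that base.
mt-Co1: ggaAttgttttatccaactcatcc
Gm29216: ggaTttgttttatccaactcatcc
mt-Nd3: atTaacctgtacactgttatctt
Gm28438: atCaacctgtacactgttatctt
The 4 copies on chromosomes 2 and 13 are less alike and held few reads. Gm13340 matches mt-Co1 at 97.6% identity and had 27.8 and 20.1 reads, Gm13341 matches mt-Co2 at 95.9% and had 35.3 and 37.8 reads, Gm13339 had 0, and Gm4076 had 1 and 0.

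Short mRNAs depended on the quantification. mt-Atp8, of 204 bases, had 3008 and 3203 reads in the alignment-based tables and 0 in the alignment-free tables. mt-Nd4l, of 297 bases, had 3 and 8 alignment-free reads, and mt-Nd3, of 348 bases, had 13 and 50. Longer members differed less: mt-Nd6, of 519 bases, kept 54.0% of its reads in both libraries, mt-Atp6 60.6% and 60.3%, and mt-Cytb 95.3% and 94.6%. Among single-transcript genes with 100 reads or more on average, 10.8% of 1607 had at most 10% of their reads in the alignment-free tables. Under 350 bases this was so for 88 of 88 genes, 3 of them mitochondrial, and at 500 bases or more for 3.19% of 1442. The part of length in the low alignment-free values was not tested. Ratios with these 3 members (mt-Nd4 over mt-Nd4l, mt-Atp6 over mt-Atp8) are given here from the alignment-based tables.

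**Figure D3:**
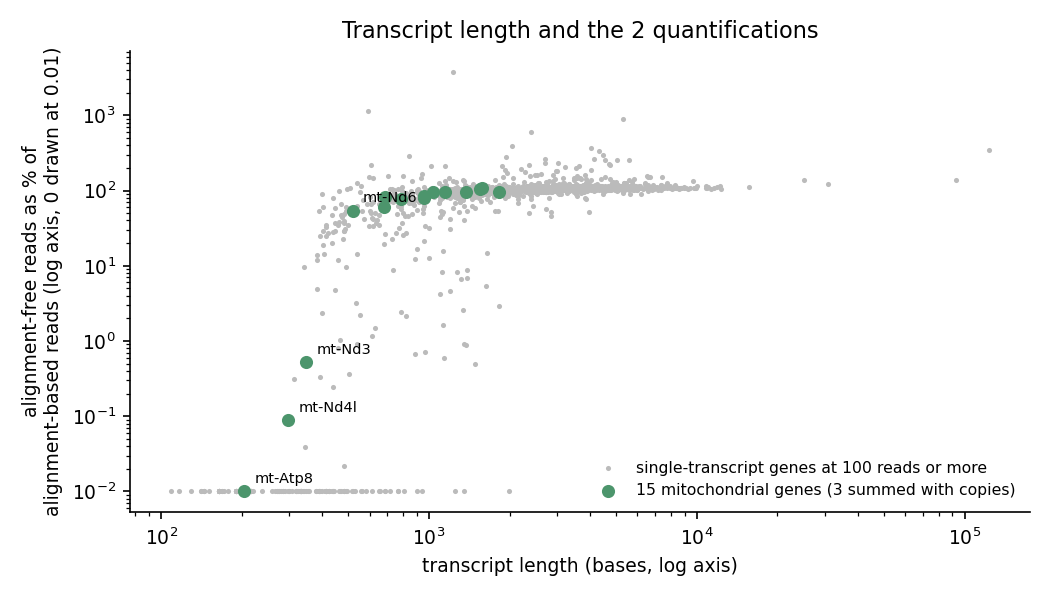
Alignment-free reads as a percent of alignment-based reads (log axis, 0 drawn at 0.01) against transcript length in bases (log axis), for single-transcript genes (grey) and the 15 mitochondrial rRNAs and mRNAs (green, 3 of them summed with copies). mt-Atp8, mt-Nd4l and mt-Nd3, the 3 members under 350 bases, lie below 1%, and mt-Nd6 at 519 bases lies at 54.0%.

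The 22 tRNA genes carry amino acids to the mitochondrial ribosome, and none had a read. Their lengths run from 59 bases (mt-Ts2, a serine tRNA, 11613 to 11671) to 75 bases (mt-Tl1, a leucine tRNA, 2676 to 2750). Both are printed whole to show the range of lengths, all under 100 bases.
mt-Ts2: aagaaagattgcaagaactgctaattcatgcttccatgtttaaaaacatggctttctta
mt-Tl1: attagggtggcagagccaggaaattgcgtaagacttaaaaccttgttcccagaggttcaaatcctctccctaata
The alignment-based tables give these genes an effective length of 0, and of all 2383 single-transcript genes under 100 bases in the tables, 0 had a read in either quantification. The 14 tRNA genes of the plus strand and the 8 of the minus strand were alike in this. The value 0 is thus no level, and no upper limit was set for tRNAs.

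Between the libraries, the mitochondrial mRNAs differed little. On reads scaled with TMM factors (a scaling that assumes most genes are equal), log2 ratios of replicate 2 over replicate 1 ran from -0.10 (mt-Nd2) to 0.07 (mt-Atp8) over the 13 mRNAs, with a median of -0.02. The rRNAs lay lower: mt-Rnr2 had 986128 and 856093 reads and was 1.17-fold lower in replicate 2, and mt-Rnr1 had 330286 and 308155 reads and was 1.09-fold lower. None of the 15 members with 20 reads or more was apart by the threshold of 0.32 on the log2 scale. Of all 16456 such genes 15.7% were (10.5% lower and 5.21% higher in replicate 2), but of the 5597 genes with 1000 reads or more, to which all 15 belong, only 1.8% were, so that the members' count is near that of genes of like depth. The common biological coefficient of variation over 17577 genes, from edgeR, was 7.53%. The rRNAs were lower in replicate 2 under all 4 scalings tried. The median of the mRNAs was -0.05 with total reads, -0.02 with TMM, -0.005 with spike-in reads and 0.01 with DESeq2 size factors. Those size factors were 1.0 in both libraries, so that setting left the reads unscaled. A scaling moves all genes alike, and the mRNA median lay at -0.02 relative to the median of all genes under each.

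**Figure D4:**
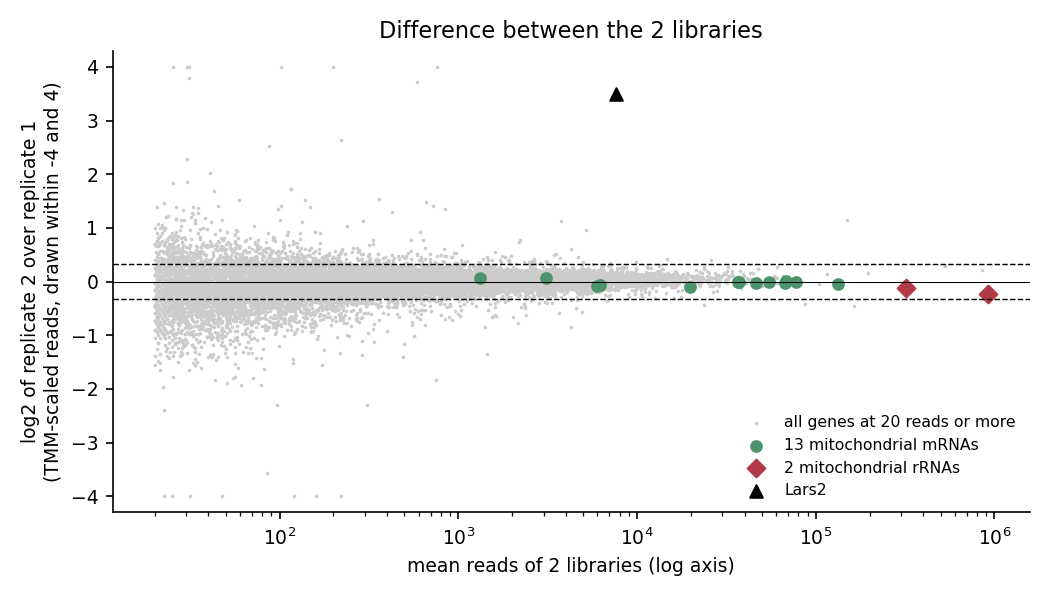
Log2 ratio of replicate 2 over replicate 1 (TMM-scaled reads, values beyond 4 in either direction drawn at 4) against mean reads (log axis) for 16456 genes (grey), the 13 mitochondrial mRNAs (green circles), the 2 mitochondrial rRNAs (red diamonds) and Lars2 (black triangle). Dashed lines mark 0.32 on either side of 0, which no mitochondrial gene passes, and Lars2 stands at 3.49.

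Nuclear subunits of the same complexes were lower per gene than the mitochondrial ones. The median mitochondrial subunit exceeded the median nuclear subunit by 12.5-fold in complex I (7 against 36 genes, log2 3.64 ± 0.14) and by 13.9-fold in complex III (1 against 9). In complex IV the ratio was 17.2-fold (4.10 ± 0.08, 3 against 10) and in complex V 23.2-fold (4.54 ± 0.02, 2 against 15). All mitochondrial subunits except mt-Nd6 exceeded the highest nuclear subunit of their complex in both libraries. By the alignment-free quantification, 4 of 7 did so in complex I and 1 of 2 in complex V, where mt-Atp8 is at 0. The highest nuclear subunits in the alignment-based tables were Ndufa3 at 250 ± 16.9 TPM, Uqcrq at 286 ± 1.53 and Cox4i1 at 505 ± 7.54. In complex V it was Atp5b, the catalytic subunit of ATP synthase, at 797 ± 30.2. mt-Nd6, at 162 ± 3.51 TPM, lay below Ndufa3 (262 and 238 TPM). In bulk tissue more mitochondria-rich cells and more RNA per cell cannot be told apart.

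**Figure D5:**
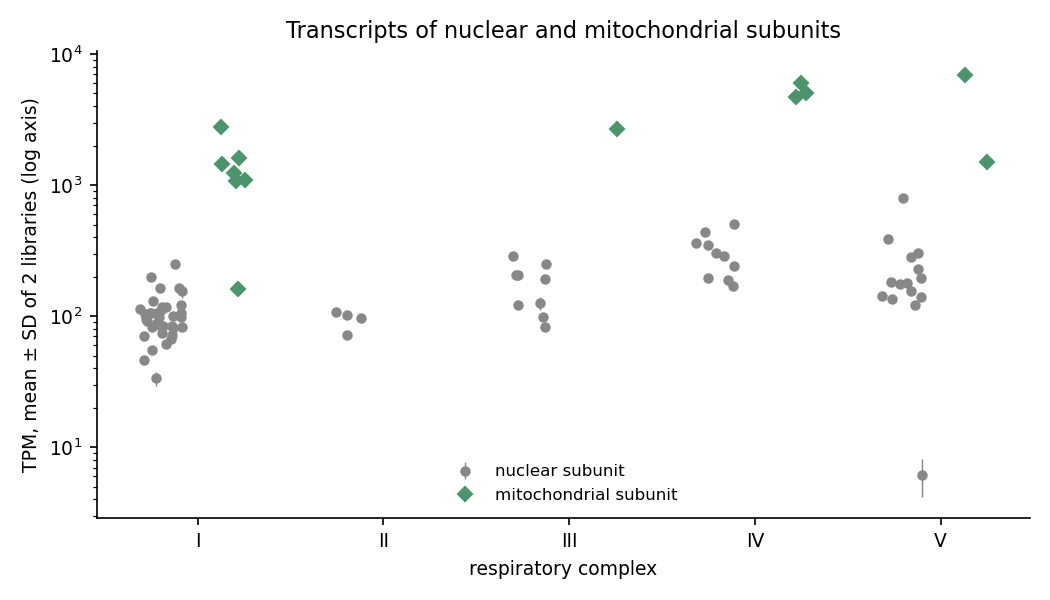
Alignment-based TPM (log axis, mean ± SD of 2 libraries) of nuclear (grey circles) and mitochondrial (green diamonds) subunits of the 5 respiratory complexes. Side shifts within a complex only separate points. Mitochondrial subunits lie above every nuclear subunit of their complex, apart from mt-Nd6 at 162 TPM in complex I, and complex II has none.

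The lowest nuclear subunits were Ndufb4 (33.5 ± 4.17 TPM), Uqcrfs1 (82.0 ± 1.82), Cox7b (171 ± 5.42) and Atp5g2 (6.15 ± 1.94), the last at 190.5 and 200.7 TPM in the alignment-free tables. After them on the high side came Ndufb8 (197 ± 3.15) and Ndufv3 (165 ± 4.42) in complex I, Uqcr11 (251 ± 2.98) and Uqcrh (206 ± 2.03) in complex III, Cox8a (439 ± 24.8) and Cox6b1 (359 ± 5.03) in complex IV, and Atp5a1 (389 ± 6.39) and Atp5g3 (305 ± 1.73) in complex V. Complex II is wholly nuclear and ran from Sdhd at 72.3 ± 1.14 to Sdha at 108 ± 5.25 TPM, with Sdhc at 101 ± 4.12 and Sdhb at 97.1 ± 0.240. Of the 74 nuclear subunits, 63 were higher in replicate 2, with a median log2 ratio of 0.09, and 1 (Atp5g2, log2 0.78) passed the threshold of 0.32. Genes with 1000 reads or more, a depth that some of the 74 lack, had a median log2 ratio of 0.02. Over all genes with 20 reads or more, 50.1% were higher in replicate 2, and 3 of the 13 mitochondrial mRNAs were. These counts are with TMM and move with the scaling. With DESeq2 size factors, which left the reads unscaled, 69 nuclear subunits, 7 mitochondrial mRNAs and 55.5% of all genes were higher. With spike-in reads the values were 66, 6 and 52.8%, and with total reads 56, 2 and 41.7%.

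Nuclear genes for the upkeep of mitochondrial DNA and for copying, cutting and translating its RNA were taken as 4 lists. Each list median lay far below the mitochondrial mRNA median of 1601 TPM. All 136 genes of the 4 lists stood at 1 TPM or more in both libraries, against 26.9% of all genes, and 121 stood at 5 TPM or more. The 14 genes of transcription and DNA maintenance had a median of 6.20 ± 0.332 TPM. The DNA polymerase Polg led them at 38.2 ± 6.0 TPM, followed by the RNA polymerase Polrmt at 19.97 ± 0.276 and the packaging factor Tfam at 16.5 ± 1.15, and the exonuclease Mgme1 was lowest at 1.73 ± 0.226. In this list 4 genes, Mterf1a, Mterf1b, Polg2 and Primpol, were lower in replicate 2 by 0.32 or more on the log2 scale, as were 10.5% of all genes. These are low counts: the most abundant of the 4, Mterf1a, had 126 and 89.3 reads.

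The 25 genes of RNA processing and decay showed a median level of 12.03 ± 1.33 TPM. They ran from the oligoribonuclease Rexo2 (51.2 ± 3.41), Fastk (44.2 ± 4.97) and the mRNA-stabilising partner Slirp (40.7 ± 4.99) down to the rRNA methyltransferase Tfb1m (2.93 ± 0.0990). The transcription and ribosome factor Mterf3 was lower in replicate 2 (log2 -0.36). Among the 78 mitoribosomal protein genes the median was 24.9 ± 1.51 TPM, and the highest were Mrpl30 (76.9 ± 6.25), Mrps21 (62.3 ± 4.70) and Mrpl33 (62.3 ± 5.25). Mrpl23 was lowest at 3.88 ± 0.460 TPM but stood at 57.4 and 56.8 in the alignment-free tables. Mrps34 and Mrps28 were higher in replicate 2 (log2 0.41 and 0.33). The 19 tRNA synthetase genes, which charge the tRNAs that could not be counted here, had a median of 12.3 ± 0.361 TPM. Gars (88.6 ± 3.94) and Kars (42.2 ± 1.36), which also serve the cytosol, were high, and Ears2 was lowest at 3.71 ± 0.170 TPM.

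The row of Lars2, the gene of the leucine enzyme (chromosome 9, 123366927 to 123462666) stood apart from every other gene of these lists. It had 1224 reads in replicate 1 and 13948 in replicate 2, or 18.5 and 186.6 TPM, an 11.2-fold difference after scaling. In the alignment-free tables it had 2882 and 48875 reads. Its mean is therefore set by 1 library. Whether these reads came from the enzyme's mRNA was not tested, so the values are those of the row and not a level of the enzyme's mRNA. No other synthetase gene passed the threshold of 0.32.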

How the data were processed

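Cortical total RNA of 2 females was measured in 2 libraries. The deposited gene tables hold expected counts and TPM, derived from transcriptome alignments (assembly mm10, annotation M21) according to the deposited README. The authors' TPM sums over all rows, spike-ins included. The deposited alignment-free tables hold estimated counts and TPM per transcript, derived straight from the reads by the same README, and were summed per gene here. Which tools made them was not given in the sources used here. In the alignment-based tables the effective length of single-transcript genes is the length minus 99 bases, and the windows of 100 bases follow from that.

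Genes were matched to GENCODE M21 by identifier. Rows without a gene identifier (spike-ins, and other rows with 6.88 reads and 1 read) were left out. mt-Co2, mt-Atp6 and mt-Co3 were summed with Gm28661, Gm10925 and Gm28437. Ratios of the 8 gene pairs are log2 of TPM + 0.1 within a library, those of neighbours in the order and of complexes use TPM alone, and library ratios are log2 of unrounded reads + 0.5 over TMM effective sizes. Expected counts were rounded for edgeR 4.0.16 (R 4.3.3, limma 3.58.1), which gave TMM factors and dispersion, and DESeq2 1.42.0 gave size factors for an alternative. Shared sequence was found with BLAST 2.17.0. Other steps used Python 3.11.15, pandas 2.3.3, numpy 2.4.6, scipy 1.17.1 and matplotlib 3.10.9. The ratio step was tested on simulated data. Named genes are all members and copies, and in each nuclear list the 3 highest, the lowest and any under 1 TPM. Genes named for a difference between libraries were chosen after their values were seen. Members and lists were chosen with earlier results of these data known. Alternatives are the other tables, each library alone, rows without copies, other scalings, thresholds and pseudocounts.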

Additional observations from a re-analysis of the deposited data

How the results depend on the processing

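Of 73 alternative values for 23 results, each from both libraries, 27 moved by more than the spread between libraries (for counts, by over 1.5 times) and 4 reversed a sign. The other 42 include values that the setting could not alter. With 2 libraries, a library taken alone always lies within 1 SD of their mean, so this says nothing about stability. The reversed values were log2 ratios. mt-Nd4 over mt-Nd4l was 8.79 in the alignment-free tables. From rows without copies, mt-Co2 over mt-Co1 was -5.95 and mt-Co3 over mt-Co1 was -1.84. With the reads of Gm29216 added to mt-Co1, mt-Co3 over mt-Co1 was -0.0486. In the alignment-free tables the mitochondrial share of TPM was 12.6%, the median of the 13 mRNAs was 2144 TPM, and 1 member passed the threshold between libraries (mt-Nd3, with 13 and 50 reads). There the log2 ratios of mitochondrial over nuclear subunits were 3.22, 3.71, 3.79 and 3.60 for complexes I, III, IV and V, where the medians include mt-Nd3 and mt-Nd4l at few reads and mt-Atp8 at 0. The copies of mt-Co2, mt-Atp6 and mt-Co3 held 89.9%, 21.9% and 54.2% of the sums there. Reading the mitochondrial rows without copies gave 5.36% of reads, 7.35% of TPM, a median of 1467 TPM, 2 members past the threshold between libraries (mt-Co2 and mt-Co3), and log2 ratios of 2.17 for complex IV and 3.35 for complex V. Scaled over protein-coding genes and mitochondrial mRNAs only, the mRNAs held 6.80% of TPM and had a median of 3002 TPM. Adding the reads of Gm29216 to mt-Co1, and counting members past the threshold from rows without copies, were chosen after seeing the data. The cause of these differences was not tested, apart from the rows left out by construction. No paired analysis was possible because both libraries form 1 group. Depth did not limit the 15 counted members, of which the lowest row had 774 reads.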

Other observations

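Lars2 was not the only abundant row that differed between the libraries. The lincRNA row Gm42418 (chromosome 17, 39846958 to 39848788) had 91423 reads in replicate 1 and 206433 in replicate 2, a 2.22-fold difference after scaling, and its neighbour Gm26917 had 779842 and 917352 reads, 1.16-fold apart. All 3 rows were higher in replicate 2, while the mitochondrial rRNAs mt-Rnr1 and mt-Rnr2 were lower there. Gm42418 and Gm26917 were chosen after their values were seen. The origin of the reads in these rows was not tested.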
